A study of Homo sapiens with 6 samples.

Results

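The genes described here carry, receive or restrain signals of the TGF-beta family in COV434 cells, an ovarian cell line that its label calls granulosa cells (GCs) with a wild-type genotype. They were taken by gene symbol from a list of 48 that holds the TGF-beta, activin, inhibin, BMP and GDF ligands, their receptors, the SMADs, the SMURF and SKI regulators, the ID target genes and the secreted antagonists. Of these, 47 have a row among the 16798 genes of the deposited table, and AMHR2, the type II receptor of anti-Müllerian hormone, was not analysed here. Total RNA was sequenced from 3 control samples and from 3 samples exposed to 15 µM 4HC for 24 h. 4HC (4-hydroxycyclophosphamide) is the active metabolite of the alkylating drug cyclophosphamide (CTX), and the treated libraries carry CTX in their titles. All 6 samples were COV434 grown in DMEM with fetal bovine serum, itself a source of TGF-beta family ligands, and the sources used here name no vehicle for the controls. They do not say whether the replicates came from separate cultures, so p-values measure only the spread between these samples, which may be technical.

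Ligands of this family are secreted as dimers and bring type I and type II receptor kinases together. The type I receptor then phosphorylates a receptor SMAD, SMAD2 or SMAD3 for TGF-beta, activin and GDF11, and SMAD1, SMAD5 or SMAD9 for most BMPs, and the phosphorylated SMAD enters the nucleus with SMAD4. SMAD6 and SMAD7 block the receptors, SMURF1 and SMURF2 mark components of the pathway for degradation, and SKI and SKIL repress SMAD target genes. In the ovarian follicle, GCs secrete inhibins, activins and anti-Müllerian hormone, and oocyte ligands of the same family act on the GCs.

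The label was first compared with GC marker genes, in CPM (counts divided by library size with edgeR's TMM factors). FOXL2, the transcription factor that maintains GC identity, had no count in any of the 3 control samples and 0.185 CPM in 1 4HC sample. FSHR, the receptor of follicle-stimulating hormone, and CYP19A1, the aromatase that makes estrogen, did not exceed 0.0615 CPM in any sample. AMH, INHA and HSD3B2 had control means of 5.19, 0.797 and 0.858 CPM and were tested but not called. NR5A2, a nuclear receptor of GCs, was the most abundant of the listed markers. It had 397, 378 and 390 CPM in controls and 295, 315 and 319 CPM after 4HC (log2 fold change -0.33, SE 0.034, adjusted p = 2.51e-11). Of 14 GC markers, 12 were in the table, 4 had enough counts for the test and 1, NR5A2, was called lower. A bulk library cannot tell fewer cells of a kind from less RNA per cell. Among markers of other cells, both tested theca markers were lower, PTCH1 (log2 fold change -0.43) and NR2F2 (-0.36), of 4 listed. Of all genes tested, 36.4% were called and 17.1% were called lower. In controls PTCH1 and NR2F2 had means of 206 and 263 CPM, and the stromal markers COL3A1, LUM and DCN of 283, 65.8 and 48 CPM. The remaining theca and stromal markers (CYP17A1, INSL3, PDGFRA, PDGFRB and COL1A1) had control means of at most 0.918 CPM. No call was made for the 2 tested of 6 oocyte markers, the 4 of 6 stromal, the 1 of 6 epithelial, the 1 of 4 endothelial or the 1 of 4 leukocyte markers. Their part in the results below was not tested. Each sample held between 16133786 and 16702316 assigned counts, so neither group was sequenced more deeply.

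In control cells the members ranged from barely detected to near the top of the transcriptome. Levels of different genes are given in the deposited TPM, a scale that corrects for transcript length and sequencing depth. ID3, an inhibitor of basic helix-loop-helix transcription factors and a direct BMP target, led with 1614 ± 31.1 TPM (SD, n = 3), above 99.5% of all genes in the table. ID2 followed with 112 ± 3.71 TPM and ID1 with 74.1 ± 1.27 TPM, and the BMP type I receptor BMPR1B came next with 67 ± 1.28 TPM. The 3 replicates of each of these genes lay closer together than the steps between the genes. At 33.3 ± 1.28 TPM LTBP4, which binds latent TGF-beta in the matrix, and SMAD5 at 32.6 ± 1.86 TPM did not differ beyond their spread. The median member exceeded 50% of all genes, 21 of 47 members (44.7%) were above 10 TPM against 47.1% of all genes, and 7 members (14.9%) were below 1 TPM against 32.7% of all genes.

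**Figure D1:**
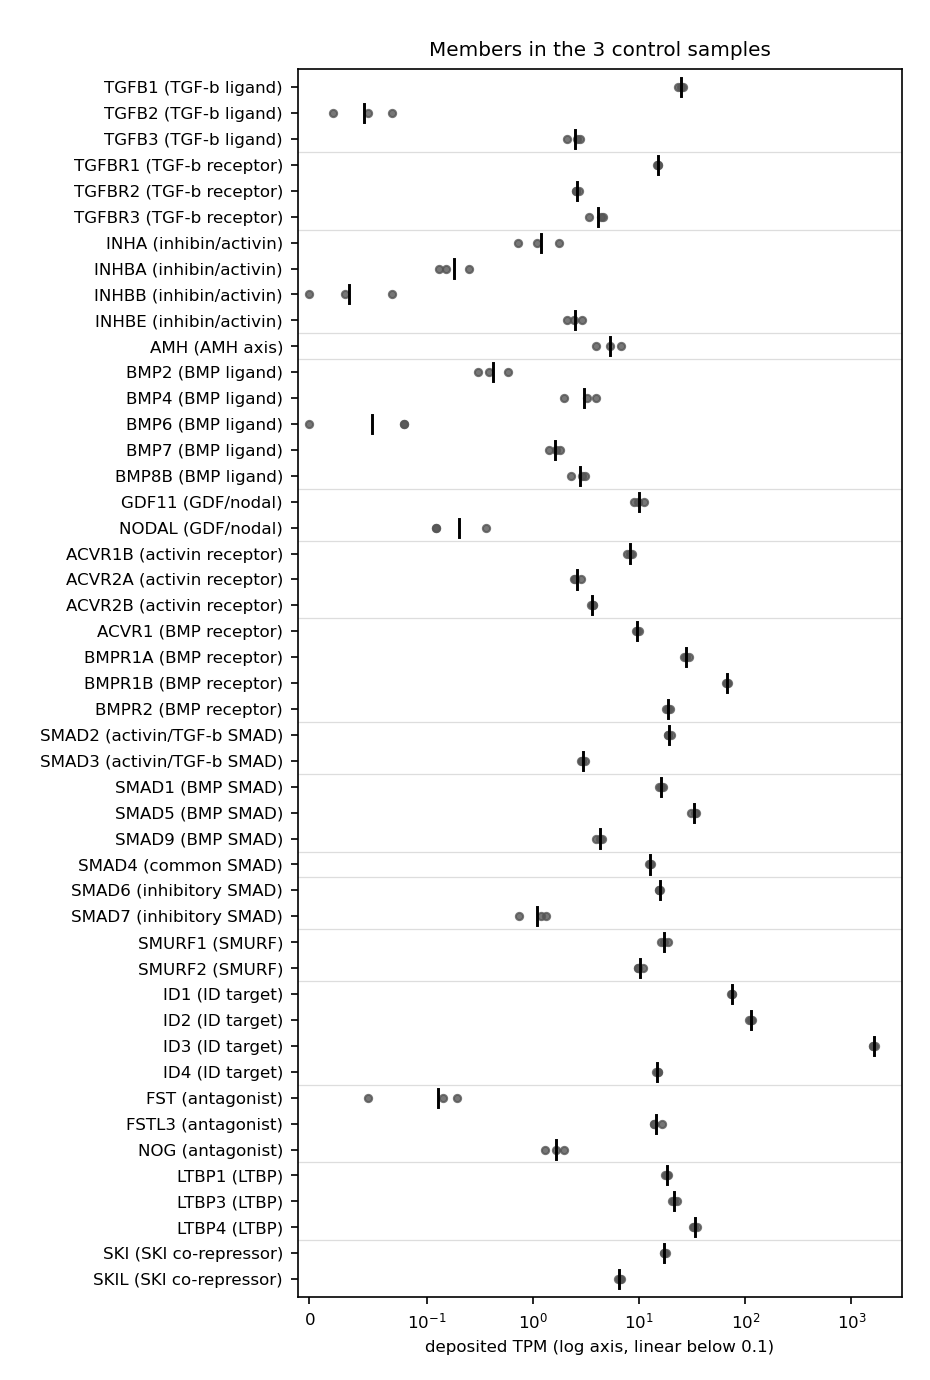
Deposited TPM of the 47 members in the 3 control samples, grouped by role, on an axis that is logarithmic above 0.1 and linear below it. Gray points are samples and black bars are means; ID3 at 1614 TPM is the highest member and INHBB at 0.0333 TPM the lowest.

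Inhibin and activin subunit genes, whose products are secreted by GCs, were at the low end. The inhibin alpha subunit INHA had 1.18 ± 0.512 TPM in controls, the activin subunits INHBA and INHBB had 0.177 ± 0.0643 and 0.0333 ± 0.0351 TPM, and the hepatic subunit INHBE had 2.47 ± 0.381 TPM. AMH, which restrains follicle recruitment, reached 5.34 ± 1.4 TPM, above 44.8% of all genes. FST (follistatin), which captures activin, was at 0.127 ± 0.0709 TPM, whereas the related FSTL3 was at 14.5 ± 1.48 TPM. The 5 BMP ligands of the member list were low as well, from 0.0533 ± 0.0462 TPM for BMP6 to 3.01 ± 1 TPM for BMP4, whereas BMP5, outside that list, was at 9.68 ± 0.262 TPM. TGFB1 at 24.5 ± 1.37 TPM and GDF11 at 9.9 ± 1.04 TPM were the most abundant ligands among the members.

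The receiving side was better represented on the BMP branch than on the activin and TGF-beta branch. These sums were chosen after the values were seen and carry no test. The summed TPM of the BMP type I receptors ACVR1, BMPR1A and BMPR1B was 106, 102 and 106 in the controls, against 22.4, 23.2 and 23.6 for ACVR1B and TGFBR1, the type I receptors of activin and TGF-beta. After 4HC the BMP sum was 95, 97.9 and 99.4 TPM and the other sum was 25.4, 26.6 and 28.1 TPM. Neither sum overlapped between control and 4HC samples. Their ratio was 4.53 ± 0.172 in controls and 3.65 ± 0.0999 after 4HC (SD, n = 3). Of the genes summed, only BMPR1B (log2 fold change -0.13) and TGFBR1 (0.37) were called in the test below. BMPR1A (-0.04), ACVR1 (-0.02) and ACVR1B (-0.11) were not called. For single genes, the CPM of the 2 groups did not overlap in 45.3% of all genes tested. The BMP receptor SMADs (SMAD1, SMAD5, SMAD9) summed to 52.9 ± 1.66 TPM in controls and 55.8 ± 1.57 TPM after 4HC, with overlapping samples, and SMAD2 and SMAD3 to 21.9 ± 0.654 and 21.1 ± 0.725 TPM.

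**Figure D2:**
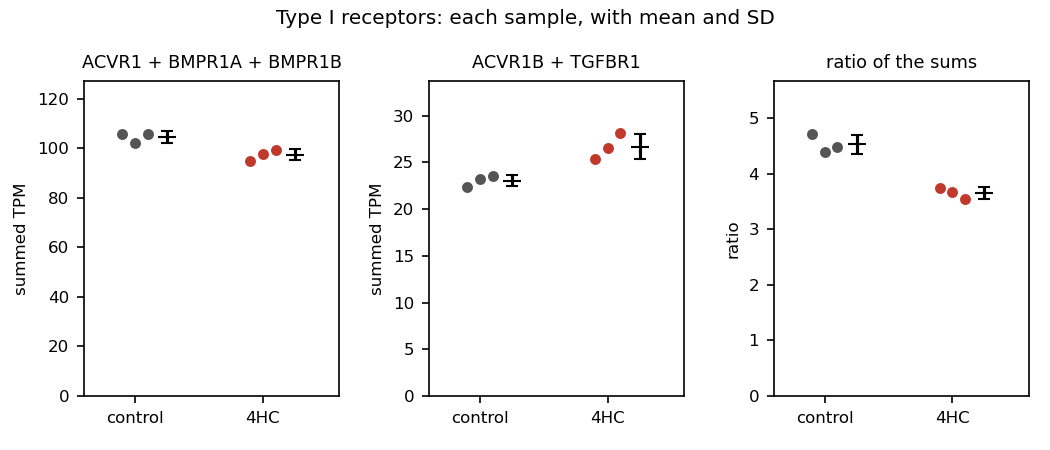
Summed TPM of the BMP type I receptors (left), of the activin and TGF-beta type I receptors (middle) and the ratio of the sums (right) in each sample, with mean and SD beside the points and axes from 0. The ratio lies between 4.38 and 4.72 in controls and between 3.54 and 3.74 after 4HC.

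The response of the members to 4HC was then tested with edgeR's quasi-likelihood test over all 12368 genes with enough counts, at a Benjamini-Hochberg adjusted p under 0.05. Of the 41 members tested, 15 (36.6%) were called, 10 higher and 5 lower, while 36.4% of all genes tested were called, 19.2% higher and 17.1% lower. The share of members called was thus near the background. DESeq2 called 7 members higher and 4 lower, against 25.3% of the genes to which it gave an adjusted p (12.9% higher, 12.5% lower). The fit with a replicate block called 9 higher and 5 lower, against 34.1% of all genes (18.3% higher, 15.8% lower), and limma on log2(FPKM + 1) called 8 higher and 2 lower, against 29.2% of all genes (18.3% higher, 10.9% lower). The median log2 fold change was 0.00514 over the tested members and 0.00474 over all tested genes. Changes were small, with absolute log2 fold changes of 0.108 to 0.41 among called members (median 0.224, against 0.233 among all called genes). None of the tested members reached a 2-fold change at an unadjusted p under 0.05 by edgeR or by DESeq2, a size that 142 genes (1.15%) reached by edgeR. The CPM of the control and 4HC samples did not overlap for 18 of the 41 members, against 45.3% of all tested genes. Besides the 15 called members these were ACVR2B, LTBP1 and SKI.

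**Figure D3:**
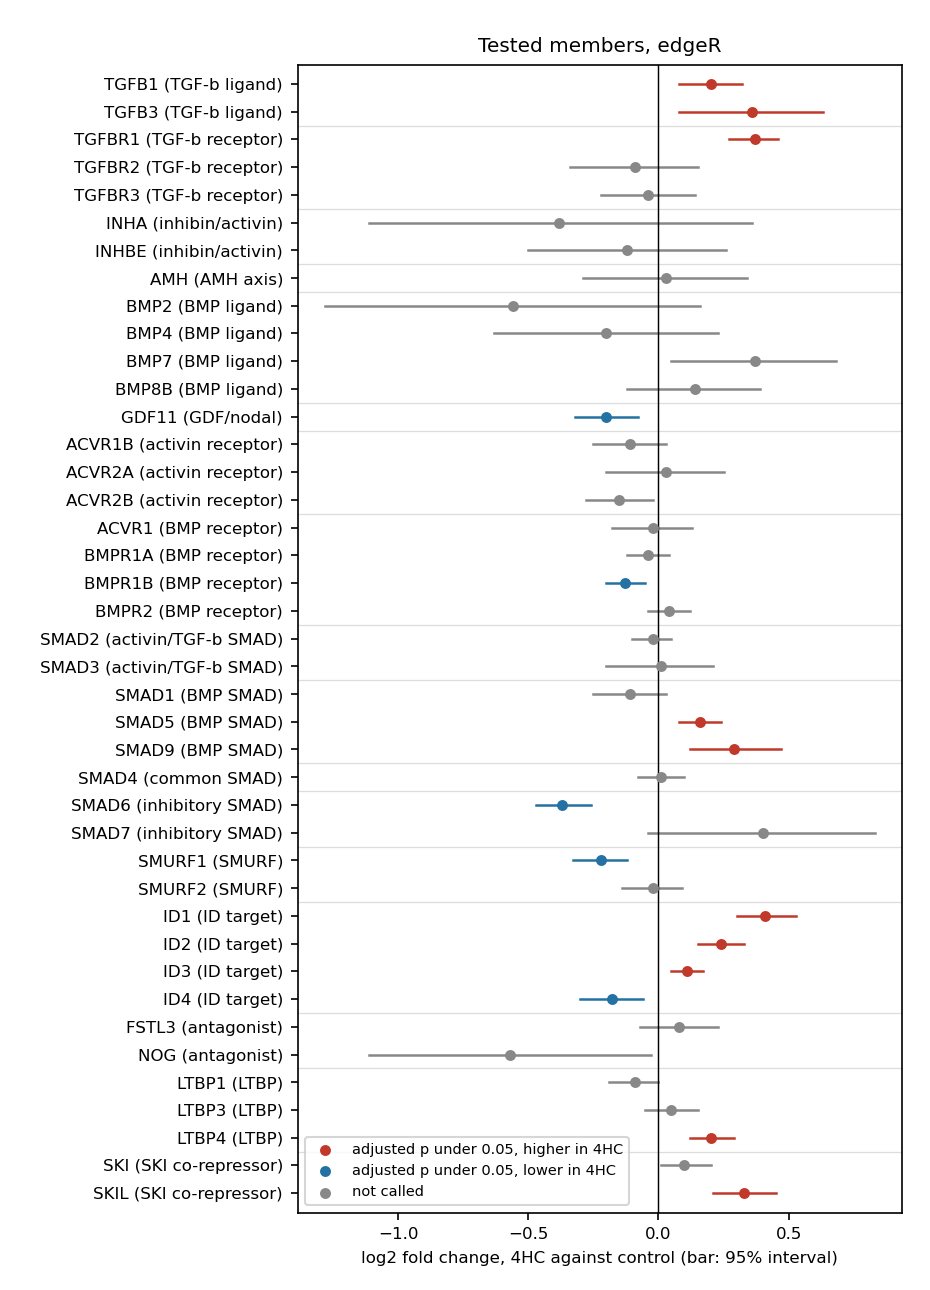
Log2 fold change (4HC against control) with its 95% interval for the 41 tested members, grouped by role. Red marks the 10 members called higher, blue the 5 called lower and gray the 26 not called; all called members lie between -0.37 and 0.41.

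Both TGF-beta ligands with enough counts were higher after 4HC. TGFB1 (chr19:41330323-41353922 in GRCh38.p13, the build of all gene coordinates given) had 33.4, 36.3 and 34.9 CPM in controls and 43.8, 38.4 and 37.9 CPM after 4HC. All treated samples exceeded all controls, with the first 4HC sample standing above the other two (log2 fold change 0.20, SE 0.060, adjusted p = 0.00607), and the call was lost without that sample (adjusted p = 0.125), with DESeq2 (0.0543) and in all 3 limma fits (0.056 to 0.0835). TGFB3 had 5.24, 5.6 and 4.1 CPM in controls and 6.94, 5.8 and 6.37 CPM after 4HC. The groups did not overlap, but the second 4HC sample was close to the highest control (log2 fold change 0.36, SE 0.139, adjusted p = 0.0384). TGFB3 was the member nearest below the threshold, and its call ended in 4 of the 6 fits that left out 1 sample, with adjusted p = 0.25 without control replicate 3, 0.172 without 4HC replicate 1, 0.0622 without 4HC replicate 3 and 0.0523 without control replicate 1. DESeq2 gave adjusted p = 0.182, the fit with a replicate block 0.0515 and limma on log2 TPM 0.0546 and 0.0615. TGFB2 stayed between 0.0603 and 0.246 CPM in all samples and was not tested.

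Their type I receptor TGFBR1 (chr9:99103656-99154192) had the smallest adjusted p of all members. It had 58.1, 58.2 and 59.2 CPM in controls and 71.8, 76 and 78.7 CPM after 4HC. The controls were nearly identical and every treated sample was well above them (log2 fold change 0.37, SE 0.047, adjusted p = 8.75e-09). The type II receptor TGFBR2 (log2 fold change -0.09, SE 0.122, adjusted p = 0.586) and the co-receptor TGFBR3 (-0.04, SE 0.088, adjusted p = 0.768) were not called. The 95% intervals ran from -0.34 to 0.15 for TGFBR2 and from -0.22 to 0.14 for TGFBR3.

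The latent TGF-beta binding proteins, which store the ligand in the matrix, were led by LTBP4 (chr19:40592883-40632393). It had 108, 102 and 99.3 CPM in controls and 123, 119 and 113 CPM after 4HC, with every treated sample above every control (log2 fold change 0.20, SE 0.042, adjusted p = 0.000123). LTBP1 had 63.3, 61.8 and 63.3 CPM in controls and 60.1, 58.8 and 58 CPM after 4HC. The LTBP1 samples did not overlap, yet the difference did not pass the threshold (log2 fold change -0.09, SE 0.048, adjusted p = 0.132). LTBP3 was also not called (log2 fold change 0.05, SE 0.050, adjusted p = 0.431).

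**Figure D4:**
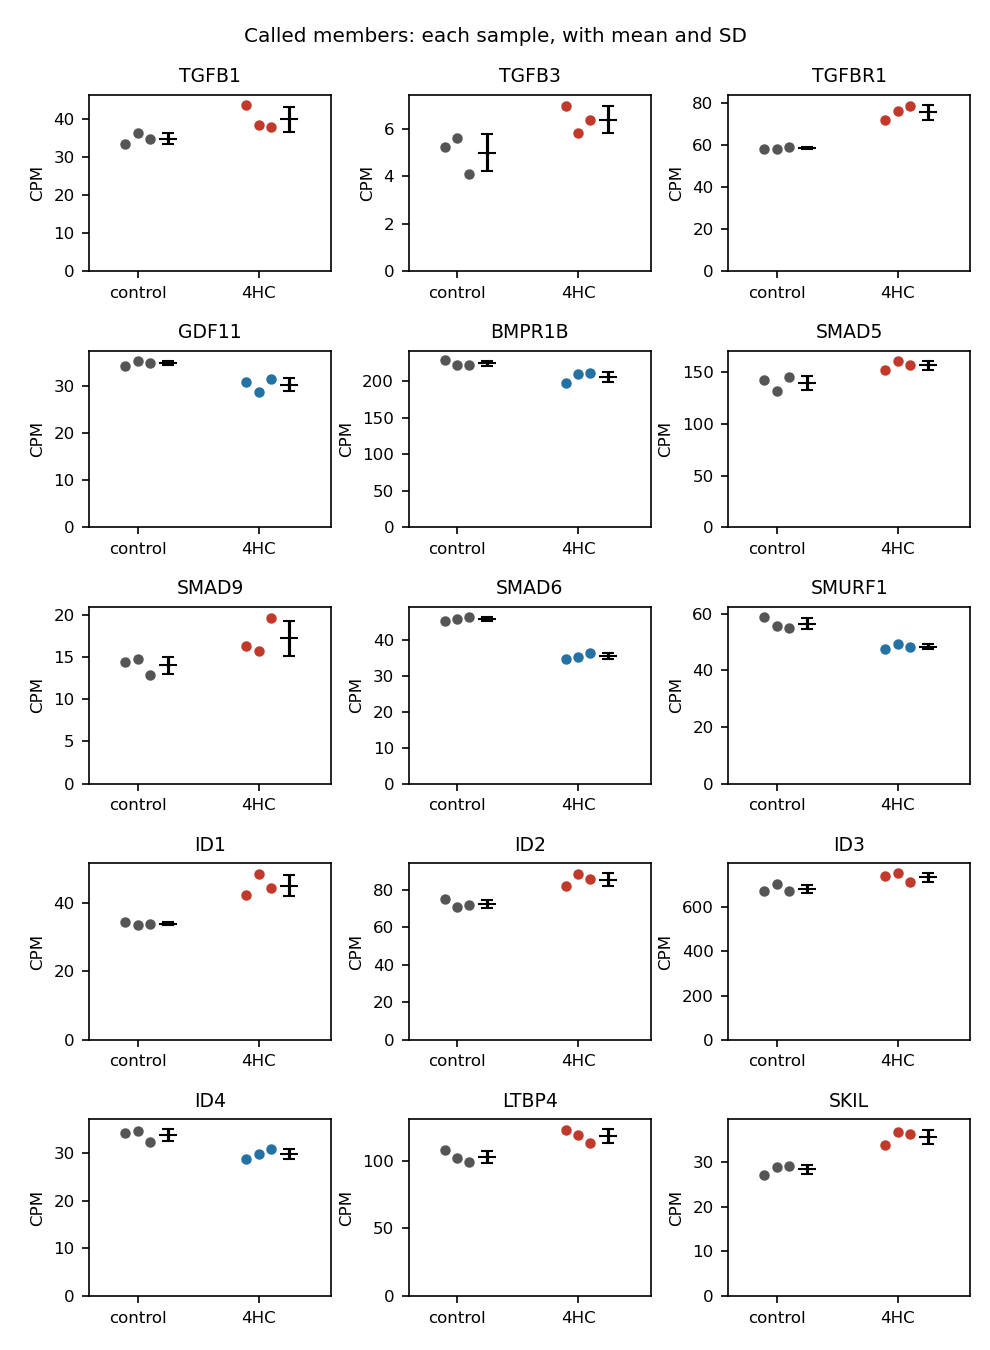
CPM of the 15 called members in each sample, with mean and SD beside the points and each axis from 0. Gray is control, red is 4HC for members called higher and blue is 4HC for members called lower; the groups do not overlap in any panel, and the steps are small beside the levels.

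Of the other ligands among the members, GDF11 was the only one called. GDF11, which signals through activin receptors, had 34.4, 35.4 and 35 CPM in controls and 30.9, 28.7 and 31.5 CPM after 4HC. Every treated sample lay below every control (log2 fold change -0.20, SE 0.059, adjusted p = 0.00576). The call was lost without 4HC replicate 2 (adjusted p = 0.0559) and on the TPM and FPKM scales, where adjusted p ranged from 0.331 to 0.452.

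None of the 4 tested BMP ligands of the member list was called. Among these ligands BMP7 came nearest to the threshold, with 3.33, 4.31 and 3.86 CPM in controls and 4.29, 5.8 and 4.77 CPM after 4HC. The lowest treated sample fell just under the highest control (log2 fold change 0.37, SE 0.157, adjusted p = 0.0598). BMP2 (log2 fold change -0.56, SE 0.359), BMP4 (-0.20, SE 0.214) and BMP8B (0.14, SE 0.128) had adjusted p of 0.226, 0.49 and 0.433. BMP8B is nearly identical in sequence to its neighbor BMP8A, so the division of reads between them is uncertain.

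Inhibin, activin and anti-Müllerian hormone genes gave no call, at depths that allow only wide intervals. INHA had 1.17, 0.739 and 0.483 CPM in controls and 0.543, 0.678 and 0.612 CPM after 4HC, and its groups overlapped (log2 fold change -0.38, 95% interval -1.11 to 0.36). AMH had 6.53, 5.23 and 3.8 CPM in controls and 6.1, 5.61 and 4.1 CPM after 4HC, nearly the same spread in both groups (log2 fold change 0.03, 95% interval -0.29 to 0.34). INHBE was not called either (log2 fold change -0.12, SE 0.190, adjusted p = 0.664). INHBA was under the count filter, with 0.555, 0.492 and 0.905 CPM in controls and 0.121, 0.37 and 0.428 CPM after 4HC. All 3 treated samples were lower than all controls, on few counts, and without the filter the fit gave a log2 fold change of -1.08 (SE 0.483, adjusted p = 0.0879). INHBB, BMP6, NODAL and FST were at most 0.362 CPM in every sample and were not tested.

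Among activin receptors none of the 3 was called. ACVR2B, a type II receptor of activin, was next to the threshold with 27.3, 25.8 and 27 CPM in controls and 24.6, 23.7 and 23.7 CPM after 4HC. The treated samples all lay lower (log2 fold change -0.15, SE 0.064, adjusted p = 0.0567). ACVR1B (log2 fold change -0.11, SE 0.071) and ACVR2A (0.03, SE 0.112) overlapped between groups.

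Of the BMP receptors 1 of 4 was called. BMPR1B (chr4:94757955-95158453), the most abundant receptor of the pathway in these cells, had 229, 223 and 223 CPM in controls and 198, 210 and 211 CPM after 4HC. The treated samples were all lower, the first of them the lowest (log2 fold change -0.13, SE 0.035, adjusted p = 0.00394), and the call was lost only on the FPKM scale among the 15 alternatives (adjusted p = 0.0666). The other type I receptors BMPR1A (log2 fold change -0.04, SE 0.042) and ACVR1 (-0.02, SE 0.077) and the type II receptor BMPR2 (0.04, SE 0.040) were not called. For BMPR1A and BMPR2 the 95% intervals stayed within -0.12 to 0.12.

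Of the 3 receptor SMADs of the BMP branch, SMAD5 and SMAD9 were called higher. SMAD5 (chr5:136132845-136182733), the most abundant, had 142, 132 and 145 CPM in controls and 152, 161 and 157 CPM after 4HC. The treated samples were all higher (log2 fold change 0.16, SE 0.039, adjusted p = 0.000742). SMAD9, which is less abundant, had 14.4, 14.8 and 12.9 CPM in controls and 16.3, 15.7 and 19.6 CPM after 4HC. Its groups were separate, with the third 4HC sample the highest (log2 fold change 0.29, SE 0.087, adjusted p = 0.00604), and the call was lost without 4HC replicate 3 (adjusted p = 0.109) or control replicate 3 (0.0647), with DESeq2 (0.0633) and in all 3 limma fits (0.0506 to 0.0701). SMAD1 was not called (log2 fold change -0.11, SE 0.069, adjusted p = 0.211).

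Receptor SMADs of activin and TGF-beta and the shared SMAD4 lay close to no change. SMAD2 had a log2 fold change of -0.02 (95% interval -0.10 to 0.05), SMAD4 of 0.01 (-0.08 to 0.10) and SMAD3 of 0.01 (-0.20 to 0.21). The intervals of SMAD2 and SMAD4 excluded changes beyond 0.10 on the log2 scale in either direction, while that of the scarcer SMAD3 was wider.

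Of the 2 inhibitory SMADs, SMAD6 was called and SMAD7 was not. SMAD6 (chr15:66702110-66782860), which chiefly restrains BMP receptors, had 45.2, 45.8 and 46.3 CPM in controls and 34.8, 35.3 and 36.4 CPM after 4HC. Both groups were tight and far apart (log2 fold change -0.37, SE 0.054, adjusted p = 2.77e-07). SMAD7, which restrains both branches, had 1.42, 2.09 and 2.23 CPM in controls and 2.23, 2.22 and 3.12 CPM after 4HC. The samples overlapped, and the interval of its log2 fold change of 0.40 ran from -0.04 to 0.83 (adjusted p = 0.153).

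SMURF1, a ubiquitin ligase first described as acting on the BMP SMADs, was lower after 4HC. It had 58.9, 55.7 and 55.1 CPM in controls and 47.6, 49.5 and 48.2 CPM after 4HC. No treated sample reached the lowest control (log2 fold change -0.22, SE 0.051, adjusted p = 0.000355). Its relative SMURF2 was not called (log2 fold change -0.02, SE 0.058, adjusted p = 0.806).

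All 4 ID genes, direct targets of the BMP SMADs that encode inhibitors of differentiation factors, were called, but not in the same direction. The share called over all tested genes was 36.4%. ID1 had 34.4, 33.4 and 33.7 CPM in controls and 42.3, 48.3 and 44.3 CPM after 4HC. The controls agreed closely and the treated samples all lay above them (log2 fold change 0.41, SE 0.057, adjusted p = 6.34e-08). ID2 (chr2:8682056-8684461) had 75, 70.8 and 71.9 CPM in controls and 82, 88.7 and 85.9 CPM after 4HC. The groups were again separate (log2 fold change 0.24, SE 0.045, adjusted p = 2.96e-05).

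ID3, the most abundant member, had 671, 702 and 673 CPM in controls and 741, 752 and 712 CPM after 4HC. The treated samples were all higher by a small step (log2 fold change 0.11, SE 0.031, adjusted p = 0.00484), and the call was lost without 4HC replicate 2 (adjusted p = 0.0544). ID4 went the other way, with 34.3, 34.8 and 32.4 CPM in controls and 28.8, 29.9 and 31 CPM after 4HC. Every treated sample was below every control (log2 fold change -0.18, SE 0.060, adjusted p = 0.0157). The ID4 call was lost without control replicate 2 (adjusted p = 0.0602) or 4HC replicate 1 (0.0634), with DESeq2 (0.0774) and on the FPKM scale (0.0688).

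The SKI co-repressors, which hold SMAD target genes silent, ended in the same direction with 1 call. SKIL (chr3:170357678-170397227), itself induced by TGF-beta in many cells, had 27.2, 29 and 29.1 CPM in controls and 33.9, 36.8 and 36.4 CPM after 4HC. The groups were clearly apart (log2 fold change 0.33, SE 0.060, adjusted p = 1.72e-05). SKI had 60.6, 64.1 and 59.8 CPM in controls and 67.7, 65.4 and 64.8 CPM after 4HC, without overlap but short of the threshold (log2 fold change 0.10, SE 0.048, adjusted p = 0.0925). Of the secreted antagonists, NOG (noggin), which captures BMPs, was uncalled at a low level with 2.03, 1.35 and 1.69 CPM in controls and 0.845, 0.987 and 1.59 CPM after 4HC (log2 fold change -0.57, SE 0.269, adjusted p = 0.0941). FSTL3 was also not called (log2 fold change 0.08, SE 0.074).

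Promoter letters are shown for called members whose genes are textbook SMAD targets: ID1 and ID4, which moved in opposite directions, SKIL, and the stretch of SMAD6 that holds a full palindromic SMAD element. They come from RefSeq windows on GRCh38.p14, of which 73 matched 42 members, and the 250 bases before each start were searched. The motifs were GTCTAGAC and GGCGCC, each its own reverse complement, and CAGAC on either strand, read as GTCTG on the other; none contains another. Bases in an annotated GENCODE exon, or past a deposited gene start that falls inside the window, were left off the first 3 sequences. All 4 lie on the plus strand, and capitals mark the motifs.
ID1, chr20:31605039-31605282: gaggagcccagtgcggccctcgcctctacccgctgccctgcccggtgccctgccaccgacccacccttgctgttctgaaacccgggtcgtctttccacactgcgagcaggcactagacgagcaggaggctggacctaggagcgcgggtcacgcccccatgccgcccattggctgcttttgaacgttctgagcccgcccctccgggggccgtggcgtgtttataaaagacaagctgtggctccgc
ID4, chr6:19837120-19837369: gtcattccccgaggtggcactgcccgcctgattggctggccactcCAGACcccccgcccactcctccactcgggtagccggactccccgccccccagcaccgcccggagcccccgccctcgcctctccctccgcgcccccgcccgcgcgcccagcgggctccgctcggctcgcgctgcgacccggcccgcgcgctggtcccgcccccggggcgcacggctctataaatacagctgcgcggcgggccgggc
SKIL, chr3:170357465-170357677: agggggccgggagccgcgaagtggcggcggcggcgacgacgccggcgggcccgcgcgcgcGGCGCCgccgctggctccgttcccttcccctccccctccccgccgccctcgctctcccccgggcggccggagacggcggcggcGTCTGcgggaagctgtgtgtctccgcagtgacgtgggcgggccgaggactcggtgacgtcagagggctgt
SMAD6, chr15:66702213-66702235: gccgccaaagtGTCTAGACtggc

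SMAD6 was the only member whose window held GTCTAGAC, from base -12 to base -5. This was 1 of 73 member windows (1.37%), against 0.182% of all 35116 windows. A single match, for which the stretch was also chosen for printing, does not show that the motif is frequent among members. The deposited SMAD6 gene begins upstream of that stretch. ID4 held CAGAC from base -205 to base -201, ID3 held it from base -147 to base -143, and the windows of ID1 and ID2 held none of the 3 motifs. Bases farther upstream were not searched, so a gene without a match here may hold the motifs elsewhere. CAGAC occurred in 38.4% of member windows and 38% of all windows, and GGCGCC in 21.9% and 16.4%. A match describes these letters and is no evidence of binding.

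The division of reads between transcripts was described for the 14 members with at least 2 transcripts above 20% of the gene's count, 30 transcripts in all, after copies of a transcript on a patch scaffold were summed with it. The shares of 6 of them did not overlap between control and 4HC samples, in TGFBR3, SMURF1 and SMAD7. All 6 were among the 28 transcripts of tested members, and 12.5% of 8308 such transcripts of all tested genes did not overlap; shares within a gene move together. In TGFBR3, whose total was not called, the transcript NM_001195683 took 30.5%, 34.6% and 36.8% of the counts in controls and 21.2%, 20.7% and 19.8% after 4HC. The count behind it was 72 to 102 in controls and 48 to 53 after 4HC, while that of NM_003243 overlapped between groups.

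In SMURF1 the transcript NM_001199847 rested on 131, 150 and 145 counts in controls and 258, 154 and 244 counts after 4HC, a share of 13.7% to 16.5% and of 19.2% to 32.8%. The main transcript NM_181349 went from 824, 755 and 743 counts to 470, 649 and 544. In both transcripts the second 4HC sample was the treated sample nearest to the controls. The SMAD7 shares rested on at most 29 counts a transcript. RSEM estimates these divisions from reads that the transcripts share, so they are values without a test. In some other members the shares differed widely within a group. After 4HC, NM_001106 of ACVR2B took 12.7%, 93.3% and 31.7%, and NM_001347663 of ACVR1 took 40.5%, 79.9% and 8.88%.

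The wider pathway was covered by 97 other genes, of which 60 were tested, 14 (23.3%) were higher and 11 (18.3%) lower. Over all tested genes these shares were 19.2% and 17.1%. Of the 10 tested genes listed as ligands 4 were higher and none lower, or 3 of 9 without BMP1, a protease that despite its name is not a BMP ligand. GDF15, a distant member of the ligand family known as a stress hormone, had 5.55, 7.75 and 6.82 CPM in controls and 30.6, 27.9 and 29.1 CPM after 4HC (log2 fold change 2.12, SE 0.089, adjusted p = 3.16e-26). BMP1 was higher by a log2 fold change of 0.58 (SE 0.076), and BMP8A by 0.40 (SE 0.131). The BMP8A value carries the uncertain division of reads with BMP8B, which was not called. GDF7, the remaining call, was under 1 CPM in all samples.

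Of the 2 receptors tested the BMP co-receptor RGMA was higher, with 4.01, 4.55 and 4.52 CPM in controls and 13.9, 12.5 and 11.5 CPM after 4HC (log2 fold change 1.54, SE 0.119, adjusted p = 1.19e-15). Both GDF15 and RGMA thus changed more than any tested member. Among 5 other antagonists and latency proteins only LTBP2 was called, higher by 0.46 (SE 0.128).

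Of 18 intracellular regulators 3 were higher and 5 lower, against 19.2% and 17.1% of all tested genes. PPM1A, a phosphatase reported to act on receptor SMADs, was higher by a log2 fold change of 0.33 (SE 0.047), and the deubiquitinase USP9X was lower (-0.24, SE 0.029), as were the ubiquitin ligase RNF111 (-0.18, SE 0.053) and STRAP (-0.17, SE 0.037). SMAD partner factors gave 1 higher call of 10, RBL1 (0.30, SE 0.055), and 4 lower, led by E2F5 (-0.40, SE 0.055) and FOXO3 (-0.23, SE 0.056).

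Of 15 tested textbook target genes outside the member list 4 were higher and 2 lower, against 19.2% and 17.1% of all tested genes. CDKN1A, a cell cycle inhibitor that p53 also induces, had the largest change of those called higher (log2 fold change 1.80, SE 0.033), followed among them by JUNB (0.35, SE 0.054) and KLF10 (0.32, SE 0.068). THBS1, which can activate latent TGF-beta, was lower (-0.28, SE 0.030). TGFBI, a gene induced by TGF-beta in many cells, was at most 0.0617 CPM in every sample. Other genes of the same list were abundant, with control means of 434 CPM for TAGLN, 222 for ACTA2 and 283 for COL3A1. Of the 20 listed target genes, 15 had enough counts for the test. The calls of these genes therefore fell on both sides.

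**Figure D5:**
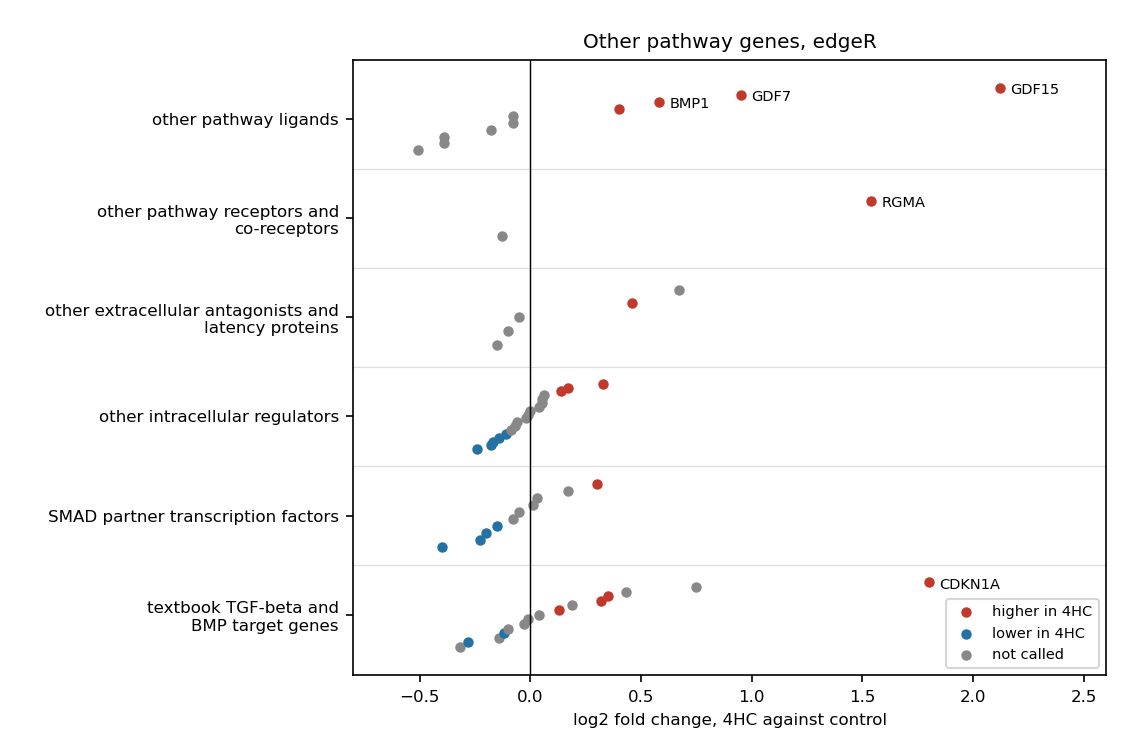
Log2 fold change (4HC against control) of the 60 tested pathway genes outside the member list, by group. Red marks genes called higher, blue genes called lower and gray genes not called, with names for calls of 0.5 or more; GDF15 at 2.12, CDKN1A at 1.80 and RGMA at 1.54 stand apart from the rest.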

How the data were processed

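Per the labels and the submitters' processing notes, the authors filtered reads with SOAPnuke; the notes name HISAT2, Bowtie2, RSEM 1.3.1 and DESeq2 1.4.5 and the build GRCh38.p13. The deposited tables hold RSEM expected counts, TPM and FPKM per gene and transcript for 6 samples (16133786 to 16702316 assigned counts each), made by the authors. Their columns of fold changes and p-values were not used. Of the expected counts 85.5% were whole, and the rest were rounded. The deposited spans of ID3 and SMURF1 mix a chromosome with a patch scaffold, so no coordinates are given for them, and the ID3 total sums both copies. TPM, FPKM and CPM are relative measures, and counting strand is not given in the sources used here.

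Counts of 3 control and 3 4HC samples were fitted with edgeR 4.0.16 (TMM, filterByExpr, quasi-likelihood F test, Benjamini-Hochberg adjustment over 12368 genes) in R 4.3.3; the procedure was tested on simulated data. A count of 0 allows up to 3 counts by counting error alone. Every member was named, with values by sample for called members, for those beside the threshold and for low or leading members of a role; other pathway genes were named up to 4 a list by fold change at 1 CPM or more. INHBA, LTBP1, SKI, NOG and SMAD7 were given by sample after their values were seen. BMP5, TGFBI, TAGLN, ACTA2 and COL3A1 were named for their levels, outside the fold change rule. The members and lists were chosen with earlier results of these data known. Alternatives were DESeq2 1.42.0, its size factors within edgeR, library size alone, other filters, a replicate block, limma 3.58.1 on log2 TPM (pseudocount 1 or 0.1) or log2 FPKM (pseudocount 1), and leaving out each sample in turn.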

Additional observations from a re-analysis of the deposited data

How the results depend on the processing

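Of the 15 called members, 8 kept their call in all 15 alternatives (TGFBR1, SMAD5, SMAD6, SMURF1, ID1, ID2, LTBP4 and SKIL), 7 lost it in at least 1, and none changed direction; 4 uncalled members (BMP7, ACVR2B, SKI and NOG) gained a call in at least 1. DESeq2 called 7 members higher and 4 lower, and leaving out 1 sample gave 8 to 12 higher and 4 to 6 lower (1942 to 2267 and 1680 to 1979 of all genes). With log2(FPKM + 1) in limma, 2 members were lower in place of 5, and 1343 of all genes in place of 2118; the cause was not tested. Without a filter on low counts 1 member, INHBA, passed a 2-fold change at unadjusted p under 0.05, in place of 0. The replicate numbers showed no strong pairing of the samples, but a weak pairing was not tested. Correlations of same-numbered deviations were 0.00866, 0.0694 and 0.0302. Those between different numbers ran from -0.08 to 0.0455, and not every sample matched best with its own number. The replicate block gave 9 higher and 5 lower members, and 2259 and 1954 of all genes. Library size alone moved the median log2 fold change of all genes from 0.005 to 0.025.

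Some uncalled members changed sign. SMAD3 was -0.001 with DESeq2 and -0.004 and -0.008 on log2 TPM with pseudocounts of 1 and 0.1; on log2 FPKM TGFBR3 was 0.003 and SMURF2 0.006. When 1 sample was left out, log2 fold changes ranged from -0.152 to 0.023 for TGFBR3, -0.639 to 0.001 for INHA, -0.418 to 0.028 for INHBE, -0.159 to 0.222 for AMH, -0.434 to 0.052 for BMP4, -0.013 to 0.236 for BMP8B, -0.013 to 0.082 for ACVR2A, -0.115 to 0.088 for SMAD3, -0.013 to 0.022 for SMAD4 and -0.056 to 0.019 for SMURF2. The data cover 1 dose, 1 time and 3 samples a group, and 6 members in the table had too few counts at this depth for a test.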
